A study of Mus musculus with 20 samples.

Results

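Eif3a encodes the large scaffold subunit of eIF3, the multisubunit complex that binds the small ribosomal subunit and helps load mRNA during initiation of translation. It is described here with 5 genes that lie beside it on mouse chromosome 19, Nanos1, Fam45a, Sfxn4, Prdx3 and Grk5, and with 4 partner subunits of the complex, Eif3b, Eif3c, Eif3d and Eif3e. These 10 genes were taken from the 21963 entries of the count table by their symbols. They were selected on their counts in Mcu-/- against WT libraries in both treatments. That comparison is therefore given for them as a description without a test, whereas tests are given for comparisons among WT libraries and for genes outside the set. All 10 were among the 11707 genes that passed the filter on low counts.

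RNA was sequenced from bone marrow-derived macrophages (BMDMs), macrophages grown from marrow in culture, of young WT mice and of young mice lacking Mcu, the pore of the mitochondrial calcium uniporter. The 20 libraries were 4 WT untreated, 5 WT with zymosan for 3 h, 4 WT loaded with BAPTA-AM at 10 µM and given zymosan for 3 h, 4 Mcu-/- untreated and 3 Mcu-/- with zymosan for 3 h. Zymosan is a yeast cell wall preparation that macrophages recognise and engulf, and BAPTA-AM is a cell-permeant chelator that buffers intracellular calcium. The study made the Mcu-/- mice by crossing floxed Mcu to a Cre driven by Cx3cr1, a promoter active in monocytes and macrophages, and grew the marrow in L929-conditioned medium. No Mcu-/- library was loaded with BAPTA-AM and no untreated library was.

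In the cell, eIF3 keeps the small ribosomal subunit from joining the large one too early and bridges it to the cap-binding factors of the eIF4F complex. Eif3a and Eif3c form the core on which most other subunits assemble, Eif3b joins Eif3a to the subunits Eif3g and Eif3i, Eif3d can itself contact the cap of some mRNAs, and Eif3e belongs to the core and carries Eif3d. The neighbours do unrelated work. Nanos1 is an RNA-binding repressor of translation known from germ cells, Prdx3 is the peroxiredoxin that removes hydrogen peroxide in mitochondria, Sfxn4 is a sideroflexin of the inner mitochondrial membrane, Grk5 is a kinase that phosphorylates activated G protein-coupled receptors, and Fam45a, also called Dennd10, carries a DENN domain.

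The 6 neighbouring genes span 340 kb, and in the GENCODE M21 annotation of the mm10 build they follow one another without another protein-coding gene between them. Nanos1 lies at chr19:60755987-60759914 on the plus strand and Eif3a at chr19:60761117-60790658 on the minus strand, so both are transcribed towards each other and their ends are 1202 bases apart. Fam45a starts 20.9 kb from the start of Eif3a, followed by Sfxn4 at 70.8 kb, Prdx3 at 83.9 kb and Grk5 at 99.1 kb. The partner subunits lie on other chromosomes, Eif3b on chromosome 5, Eif3c on chromosome 7 and both Eif3d and Eif3e on chromosome 15. Exons of Eif3d and Fam45a are shared in part with annotated genes on the opposite strand, and Grk5 overlaps Zfp950 on the opposite strand without shared exons. The strand setting of the counting was not given in the sources used here, so reads in those shared exons cannot be told apart.

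The promoters of Eif3a and Nanos1 are shown because these genes differed most between genotypes and in opposite directions. Each sequence runs 5′ to 3′ from 250 bases before to 50 bases after the start given by RefSeq on GRCm38.p6. Capitals mark matches to 2 of 6 short motifs searched on both strands, the GC box GGGCGG and the E-box CACGTG.
Eif3a, chr19:60790644-60790943, minus strand: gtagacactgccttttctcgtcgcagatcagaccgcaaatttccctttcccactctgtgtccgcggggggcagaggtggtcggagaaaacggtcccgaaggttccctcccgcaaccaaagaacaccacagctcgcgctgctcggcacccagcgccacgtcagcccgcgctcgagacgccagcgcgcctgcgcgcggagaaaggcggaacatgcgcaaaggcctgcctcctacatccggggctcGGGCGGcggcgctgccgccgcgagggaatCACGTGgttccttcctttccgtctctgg
Nanos1, chr19:60755737-60756036, plus strand: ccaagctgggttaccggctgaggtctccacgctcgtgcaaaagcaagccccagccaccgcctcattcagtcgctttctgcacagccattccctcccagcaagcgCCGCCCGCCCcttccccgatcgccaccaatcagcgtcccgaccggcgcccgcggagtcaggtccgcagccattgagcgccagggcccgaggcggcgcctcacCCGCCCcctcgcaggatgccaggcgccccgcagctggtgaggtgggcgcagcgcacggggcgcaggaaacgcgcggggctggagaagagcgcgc

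Both sequences were rich in G and C, with 65.7% in the Eif3a promoter and 71.7% in the Nanos1 promoter against a median of 52.7% over 32851 mouse promoters of the same length. They held 35 and 34 CG dinucleotides against a median of 7. The Eif3a sequence had 1 GC box, beginning 7 bases before the start, and 1 E-box at base 22 after it, whereas Nanos1 had 3 GC boxes, of which the first 2 overlap. A GC box occurred in 35.7% and an E-box in 7.15% of all promoters. The letters of the TATA box TATAAA (13.6% of promoters), the AP-1 element TGANTCA (7.81%), the cyclic AMP element TGACGTCA (1.79%) and the kappaB element (1.63%) were not found in either window. A promoter was matched for 9 of the 10 genes, all but Eif3e, and a GC box was found in 8 of them, which is a description of letters and not of bound factors.

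Library totals ranged from 14420402 to 23954552 counts. Of 8 macrophage markers listed, all were in the table, with Adgre1 between 2462 and 5060 CPM, a count scaled to library size, and Lyz2 between 2823 and 8390, while Ncr1 and Fcer1a, which define natural killer cells and mast cells, were at 0 in every library. Mcu itself was lower in Mcu-/- libraries but not absent, at 2.63 to 4.05 CPM against 6.49 to 8.36 in WT untreated libraries, and at 3.62 to 3.98 against 6.10 to 7.23 with zymosan. Its log2 difference was -1.14 (SE 0.13, edgeR adjusted p = 0.000163) untreated and -0.82 (SE 0.14, adjusted p = 9.61e-05) with zymosan. With the untreated groups alone in the fit the former was -1.15 (adjusted p = 0.0979).

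The Mcu-/- untreated library 4 stood apart from its 3 group mates. Counts of the other 28 pairs of libraries within a group differed by a mean chi-square of 1.60 to 6.33 per gene, and the 3 pairs with library 4 by 212 to 220. Library 4 lay near the 3 Mcu-/- zymosan libraries in most of the macrophage markers but not in Cd14, a co-receptor for microbial products. Cd14 was at 198 CPM in it, near the 202 to 241 of the other untreated libraries, against 1333 to 1424 in the Mcu-/- and 1071 to 1117 in the WT zymosan libraries. Cd68, a lysosomal glycoprotein, was at 971 CPM in it and at 1142 to 1175 in the Mcu-/- zymosan libraries, against 251 to 259 in Mcu-/- untreated libraries 1 to 3 and 209 to 321 in WT libraries. Lyz2 was at 2823 and at 3217 to 3280 CPM respectively, against 6867 to 8390 in all others. The summed level of 4 fibroblast markers was 16.6 CPM in library 4 and 23.8 to 30.2 in the Mcu-/- zymosan libraries, against 1.02 to 1.92 in libraries 1 to 3 and 3.25 to 5.30 in WT with zymosan. Most of that sum was Col1a1, at 13.01 CPM in library 4 and 18.3 to 25.6 in the Mcu-/- zymosan libraries. Col3a1 was at 3.06 in library 4 against 0.339 to 1.17 in the other untreated libraries. With zymosan it was at 3.06 to 4.58 in Mcu-/- and 0.499 to 1.63 in WT libraries. Pdgfrb in library 4, at 0.52, lay above the 0.043 to 0.219 of the other untreated libraries and below the 0.627 to 1.40 of WT with zymosan. Dcn was at 0.040 in library 4, at 0 in the other untreated libraries and at 0 to 0.329 in WT with zymosan. The summed level of 6 neutrophil markers was 0.159 CPM in library 4 against 2.14 to 2.74 in libraries 1 to 3, and with zymosan 0.396 to 0.589 in Mcu-/- against 3.34 to 5.41 in WT libraries.

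Over the 11707 genes, the log2 difference of library 4 from libraries 1 to 3 correlated with the log2 difference of Mcu-/- from WT with zymosan at Pearson's r = 0.79, although these quantities share no library. The difference of libraries 1 to 3 from WT untreated correlated with it at r = -0.05. Genes are not independent replicates, and the values describe these libraries. With zymosan, the genotype and whatever sets library 4 and the 3 Mcu-/- zymosan libraries apart therefore cannot be told apart. Untreated results are given with and without library 4. The summed level of the macrophage markers was 14417 to 14777 CPM in libraries 1 to 3, 13357 to 13742 in WT untreated libraries, 8556 in library 4, and with zymosan 10408 to 10767 in Mcu-/- and 16080 to 16393 in WT libraries. Lyz2 and Adgre1 made up most of that sum, and the markers did not move together. Adgre1, Itgam, Lyz2 and Cd14 were lower in library 4 than in libraries 1 to 3, and Csf1r, Cd68, Fcgr1 and Mertk were higher. Csf1r was at 1270 CPM in library 4 against 814 to 861, and Mertk at 76.0 against 35.3 to 40.1. Fcgr1 was at 518 against 118.42 to 118.45.

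Values are CPM scaled by the trimmed mean of M values (TMM), which corrects library totals for a few genes taking many reads. The TMM factors were 1.15 to 1.24 in untreated and 0.838 to 0.915 in zymosan-treated libraries, so a comparison of treated with untreated cells depends on the scaling. With library totals in place of TMM, the median log2 difference of all genes for WT zymosan against untreated moved from -0.04 to -0.54. Comparisons between genotypes in the same treatment moved far less, from 0.02 to -0.04 with zymosan and from 0.02 to -0.0062 untreated.

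Eif3a was lower in every Mcu-/- library than in every WT library. In WT untreated cells the 4 libraries gave 865, 897, 916 and 860 CPM, and in Mcu-/- untreated cells they gave 624, 573, 595 and 644. With zymosan the 5 WT libraries gave 1162, 1102, 1112, 1106 and 1053, and the 3 Mcu-/- libraries, numbered 3, 4 and 5 in the table, gave 590, 575 and 592. The highest Mcu-/- value, 644, belonged to library 4, and the lowest WT value was 860.

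The mean of Eif3a was 885 ± 26.7 CPM (SD, n = 4) in WT untreated and 609 ± 31.3 (SD, n = 4) in Mcu-/- untreated cells, a log2 difference of -0.54 (SE 0.042), or -0.57 without library 4. With zymosan it was 1107 ± 38.7 (SD, n = 5) in WT and 586 ± 9.57 (SD, n = 3) in Mcu-/- cells, a log2 difference of -0.92 (SE 0.045). Single Mcu-/- libraries lay at 64.8% to 72.8% of the WT mean untreated and at 51.9% to 53.5% with zymosan. The lower level was thus also seen in libraries 1 to 3, at 598 ± 25.8 CPM (SD, n = 3). Library 4, which stood apart elsewhere, was 1.08-fold the mean of libraries 1 to 3 in this gene. No test is given, since Eif3a was chosen for this difference.

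**Figure D1:**
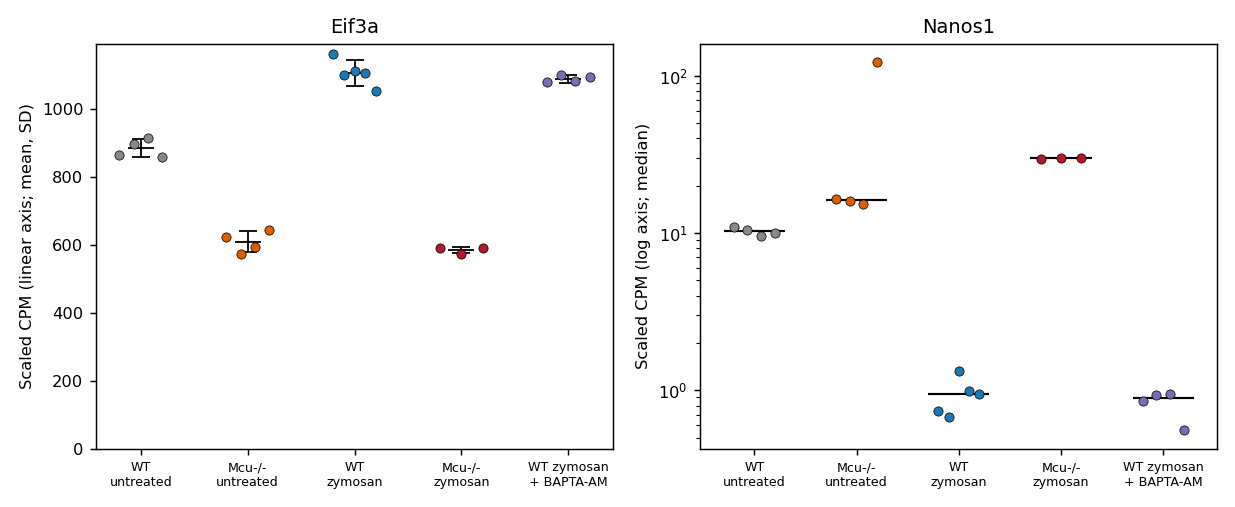
TMM-scaled CPM of Eif3a (left, linear axis, bars show mean and SD) and Nanos1 (right, log axis, bars show the median) in each of the 20 libraries, by group. Eif3a sits between 573 and 644 in the 7 Mcu-/- libraries and between 860 and 1162 in the 13 WT libraries, whereas Nanos1 is lowest in the WT zymosan groups and reaches 122 in 1 Mcu-/- untreated library. The rise of Eif3a with zymosan in WT turns into a fall with library totals, and the fall of Nanos1 does not depend on the scaling.

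Nanos1 was higher in every Mcu-/- library than in the WT libraries of the same treatment. WT untreated libraries gave 10.998, 10.4, 9.55 and 10.0 CPM, and Mcu-/- untreated libraries gave 16.4, 16.0, 15.3 and 122, the last in library 4. With zymosan the WT libraries held 0.740, 0.672, 1.33, 0.986 and 0.942 CPM, which rest on 13 to 26 counts each, and the Mcu-/- libraries 29.6, 29.8 and 30.0, on 502 to 604 counts. The groups did not overlap in either treatment, and the 3 Mcu-/- zymosan libraries were close to one another.

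With zymosan, Nanos1 was 31.9-fold higher in Mcu-/- than in WT cells by the ratio of means, a log2 difference of 4.98 (SE 0.64). In untreated cells libraries 1 to 3 were 1.55-fold and library 4 was 11.9-fold above the WT mean. The log2 difference of 2.04 (SE 0.51) over all 4 libraries became 0.63 without library 4, so that library sets most of the untreated value. In libraries 1 to 3 the range of 15.3 to 16.4 still lay above the WT range of 9.55 to 10.998. The part of the fibroblast, neutrophil or macrophage markers in the Nanos1 level of library 4 and of the zymosan libraries was not tested, and in bulk RNA a change in the mix of cells and a change per cell cannot be told apart.

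The ratio of both genes within a library does not depend on the scaling. Per 1000 Eif3a counts there were 11.6 ± 0.94 Nanos1 counts (SD, n = 4) in WT untreated and 0.845 ± 0.24 (SD, n = 5) in WT zymosan libraries. In Mcu-/- untreated libraries 1 to 3 there were 25.8 to 28.0, in library 4 there were 189, and in the Mcu-/- zymosan libraries 50.9 ± 0.94 (SD, n = 3). Reads beyond the annotated end of either gene were not examined.

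The 4 remaining neighbours differed far less between genotypes, and in untreated cells none separated them. Fam45a ranged from 65.4 to 74.6 CPM in WT untreated, 66.2 to 83.6 in Mcu-/- untreated, 51.0 to 57.7 in WT zymosan and 62.9 to 68.7 in Mcu-/- zymosan libraries. Its log2 difference was 0.23 (SE 0.066) with zymosan and 0.09 untreated, or 0.03 without library 4. Prdx3, the mitochondrial peroxiredoxin, ranged from 78.1 to 85.4 CPM in WT untreated, 74.4 to 90.9 in Mcu-/- untreated, 83.0 to 88.3 in WT zymosan and 70.1 to 75.6 in Mcu-/- zymosan libraries. Library 4, at 74.4, lay within the Mcu-/- zymosan range. The log2 difference was -0.25 (SE 0.053) with zymosan and 0.03 untreated, or 0.09 without library 4.

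Grk5 gave 15.3 to 19.05 CPM in WT untreated and 15.1 to 17.8 in Mcu-/- untreated libraries, ranges that lay over each other. With zymosan it gave 21.04 to 23.6 in WT and 15.7 to 16.1 in Mcu-/- libraries, a log2 difference of -0.50 (SE 0.092). Sfxn4 was scarce, with 4 to 38 counts in any library and 0.219 to 1.35 CPM, and its log2 difference was 0.15 (SE 0.34) with zymosan and -0.05 (SE 0.28) untreated. These standard errors exceed the differences.

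**Figure D2:**
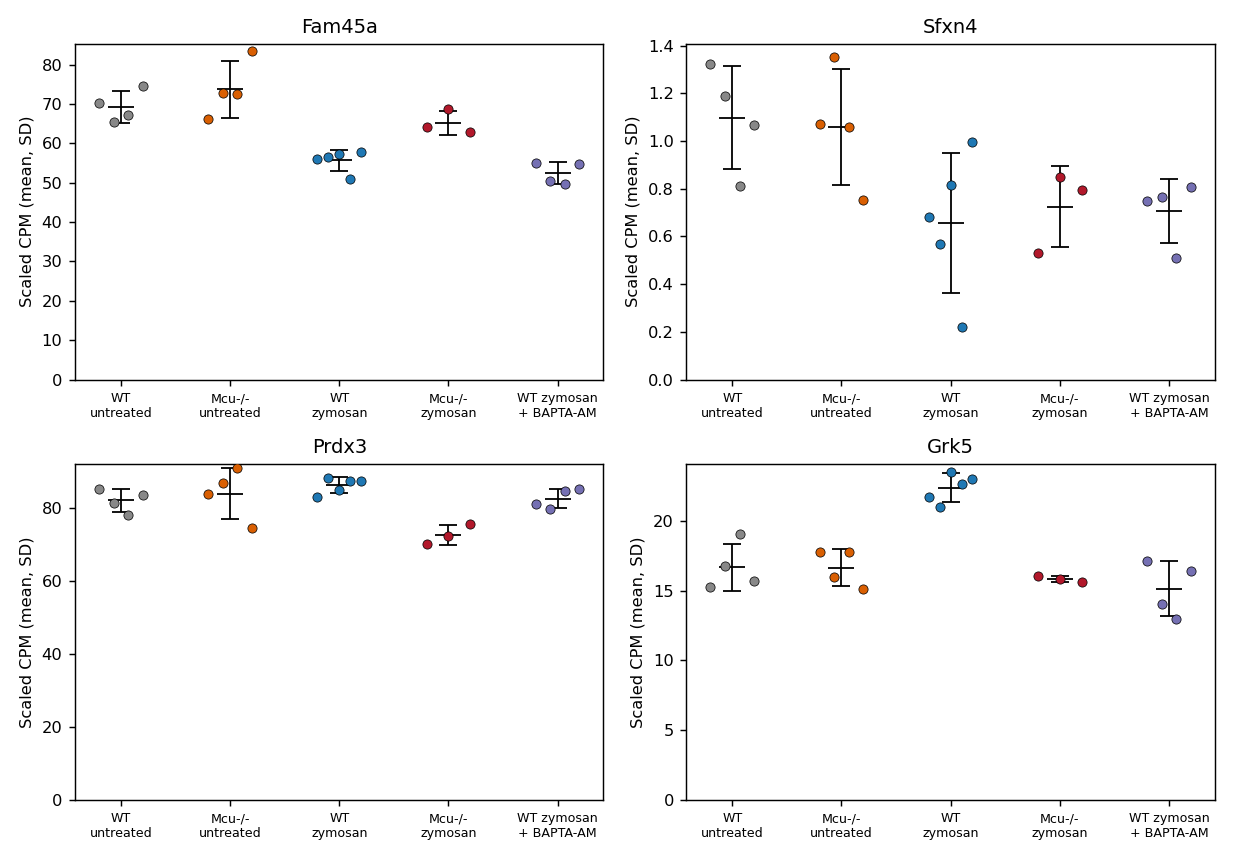
TMM-scaled CPM of Fam45a, Sfxn4, Prdx3 and Grk5 in each library by group, with mean and SD. Genotypes overlap in untreated cells in all 4 panels, and Grk5 is at 21.04 to 23.6 in WT zymosan libraries against 15.7 to 16.1 in Mcu-/- and 12.96 to 17.17 in BAPTA-AM-loaded ones. The rise of Grk5 with zymosan in WT becomes a small fall with library totals, and the falls of Fam45a and Sfxn4 do not.

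Among the partner subunits, Eif3c was higher in library 4 and in the Mcu-/- zymosan libraries. It gave 246 to 266 CPM in WT untreated libraries, 257, 242, 255 and 378 in Mcu-/- untreated libraries 1 to 4, 307 to 330 in WT zymosan and 453 to 459 in Mcu-/- zymosan libraries. Libraries 1 to 3 lay at 94.6% to 101% of the WT mean, library 4 at 148% and the zymosan libraries at 141% to 143%. The log2 difference was 0.50 (SE 0.097) with zymosan, and untreated it went from 0.15 (SE 0.095) to -0.03 without library 4.

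Eif3e differed in the opposite direction. Its level was 204 to 228 CPM in WT untreated libraries, 204, 227, 216 and 172 in Mcu-/- untreated libraries 1 to 4, 277 to 291 in WT zymosan and 216 to 228 in Mcu-/- zymosan libraries. The zymosan groups did not overlap, with a log2 difference of -0.37 (SE 0.065), while untreated it was -0.07 and turned to 0.01 without library 4. Eif3d and Eif3b were slightly higher with zymosan, by 0.21 (SE 0.055) and 0.08 (SE 0.056) on the log2 scale, and in untreated cells by 0.13 and 0.02, which became 0.05 and -0.05 without library 4.

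Counting all 10 genes, the groups of single libraries did not overlap for 9 with zymosan, all but Sfxn4, and for 2 untreated, Eif3a and Nanos1. Over all genes tested the groups did not overlap for 64% with zymosan and for 7.09% untreated, and 62.1% of genes were called at an adjusted p under 0.05 with zymosan but 0.35% untreated. Since the genes were chosen with this contrast in view, nothing is read from those counts. For 8 of the 10 genes the difference of library 4 from libraries 1 to 3 had the sign of the difference of Mcu-/- from WT with zymosan. The exceptions were Eif3a, at 0.11 against -0.92, and the scarce Sfxn4, at -0.56 against 0.22, on the scale of log2 CPM with a prior count of 2. Over all genes the same differences correlated at r = 0.79. The share of all genes with the same sign was not counted, so nothing is read from the 8.

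The share of Eif3a among all counts of the 14 eIF3 subunit genes was also lower in Mcu-/- cells and needs no scaling between libraries. It was 31.9% ± 0.75 (SD, n = 4) in WT untreated, 32.3% ± 0.78 (SD, n = 5) in WT zymosan and 32.3% ± 0.29 (SD, n = 4) in BAPTA-AM-loaded libraries. In Mcu-/- cells it was 24.5% ± 0.96 (SD, n = 4) untreated, from 23.4% to 25.5%, and 20.9% ± 0.38 (SD, n = 3) with zymosan. Library 4 held the highest of the untreated values, and the other 3 were 25.1%, 23.4% and 24.0%. Within WT the share did not differ detectably between zymosan and untreated cells, by 0.447 percentage points with exact two-sided permutation p = 0.389, nor with BAPTA-AM, by -0.033 with p = 0.929 (adjusted over 4 tests, 0.519 and 0.929). The other 2 tests took Eif3a per kilobase over the median of the other subunits, which was 3.56 in zymosan against 3.17 in untreated WT cells (exact permutation p = 0.0238, adjusted 0.0952) and 3.43 with BAPTA-AM (p = 0.317, adjusted 0.519). The smallest p these exact tests can give is 0.00794.

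**Figure D3:**
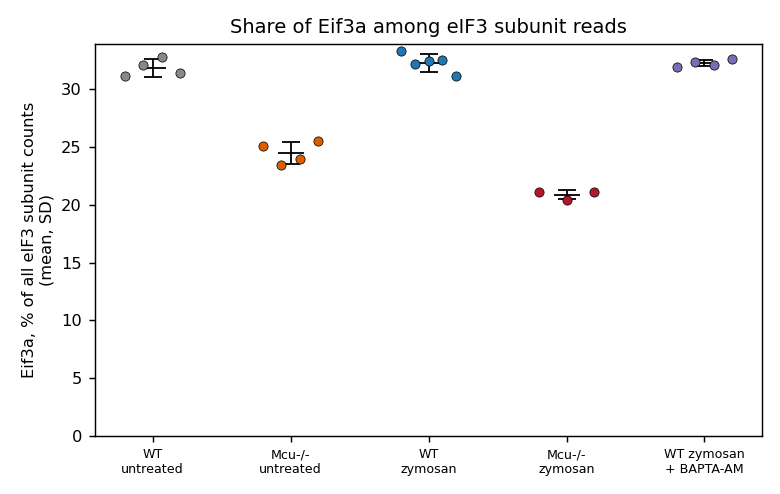
Eif3a counts as a percentage of the counts of all 14 eIF3 subunit genes in each library, with mean and SD per group. The 13 WT libraries lie between 31.1% and 33.3%, the 4 Mcu-/- untreated ones between 23.4% and 25.5% and the 3 Mcu-/- zymosan ones between 20.4% and 21.1%.

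Per kilobase of annotated exon, Eif3a ranked second among the subunits in WT untreated cells. The annotated exonic length was 1.612 kb for Eif3h, 8.731 kb for Eif3a and 6.719 kb for Eif3e. Which transcripts the cells used was not determined, so the order and the ratio to other subunits depend on the annotation. Eif3h led at 182 ± 3.77 CPM per kb (SD, n = 4), Eif3a followed at 101 ± 3.05, and Eif3b, Eif3f and Eif3c came next at 75.6 ± 3.53, 73.8 ± 2.92 and 72.9 ± 2.83, levels that did not differ beyond their spread. Eif3m at 43.5 stood below them. Eif3l, Eif3e, Eif3k and Eif3g formed a further tie at 33.2 to 30.9, then came Eif3i at 25.5, Eif3d at 20.3 and Eif3j1 at 14.5, and Eif3j2 was the scarcest at 1.12. Eif3j1 and Eif3j2 are near-identical copies, so the split of reads between them is uncertain. In Mcu-/- cells Eif3a stood at 69.8 ± 3.59 untreated and 67.1 ± 1.10 CPM per kb with zymosan, against 127 ± 4.43 (SD, n = 5) in WT with zymosan, where Eif3c reached 91.4 and in Mcu-/- 130. Relative to the median of the other subunits per kilobase, Eif3a was 3.17-fold in WT untreated and 2.28-fold in Mcu-/- untreated cells.

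The 9 other subunits were not among the selected genes, and their genotype comparison was tested over all genes. They belong to the same complex as genes selected on that comparison, and the list was made with earlier results known. Their p-values are therefore not independent of the choice. With zymosan all 9 passed, Eif3g higher and 8 lower, where 31.8% of all genes were called higher and 30.3% lower. Their median log2 difference was -0.30 beside 0.02 for all genes. Eif3h and Eif3m of the core, Eif3i of the module around Eif3b, and Eif3j1, a loosely bound subunit, fell by 0.44 (SE 0.067, edgeR adjusted p = 2.88e-05), 0.30 (SE 0.071, adjusted p = 0.00133), 0.33 (SE 0.060, adjusted p = 0.000134) and 0.30 (SE 0.037, adjusted p = 2.37e-06) on the log2 scale. Eif3j2, Eif3l, Eif3f and Eif3k fell by 0.35, 0.24, 0.19 and 0.18, and Eif3g, which works in scanning, rose by 0.30 (SE 0.054, adjusted p = 0.000113). The value for Eif3a was -0.92. Eif3j2 lost its call without the Mcu-/- zymosan library numbered 3 (-0.27, adjusted p = 0.111) or 5 (-0.33, adjusted p = 0.0628), and Eif3k without that numbered 3 (-0.13, adjusted p = 0.0646).

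In untreated cells none of the 9 was called by edgeR, none had an unadjusted p under 0.05, and DESeq2 gave 0 for both counts. Their log2 differences ran from -0.24 for Eif3j2 to 0.02 for Eif3g, with a median of -0.07. In library 4 alone, Eif3h, Eif3m, Eif3i, Eif3k and Eif3l lay at -0.42, -0.35, -0.26, -0.26 and -0.25 from the WT mean. In libraries 1 to 3 these subunits lay at -0.098 to 0.035. The remaining subunits in library 4 were Eif3f at -0.11, Eif3j1 and Eif3j2 at -0.02 and Eif3g at 0.16. Without library 4 they ran from -0.31 to 0.02, again with none called, and 1 had an unadjusted p under 0.05. In the same fits Eif3a was at -0.54 and -0.57. Over all genes edgeR called 0.35% in untreated cells, and 14.9% had an unadjusted p under 0.05. Exons of Eif3j1, Eif3j2 and Eif3m are shared with other annotated genes.

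**Figure D4:**
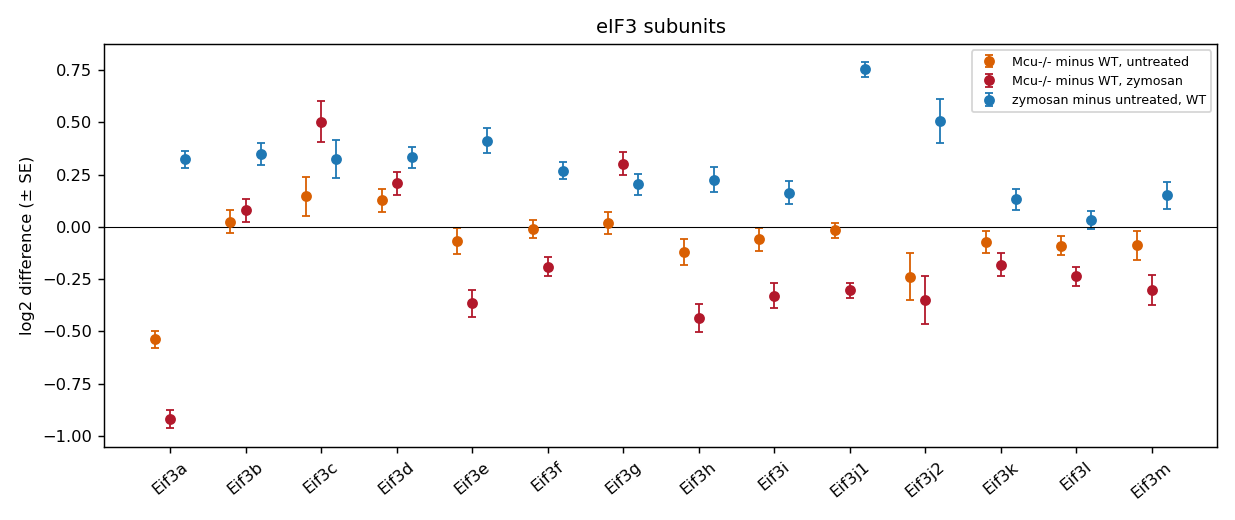
Fitted log2 differences with SE for the 14 eIF3 subunit genes, for Mcu-/- minus WT untreated, Mcu-/- minus WT with zymosan, and zymosan minus untreated in WT. Eif3a is at -0.54 untreated and -0.92 with zymosan, below every other subunit in both, whereas its zymosan response in WT, 0.32, lies among those of the others. The WT responses of all but Eif3j1 and Eif3j2 turn negative when library totals are used.

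Of 36 other initiation factors, 35 were tested. With zymosan the genotype difference was called in 24, upward in 10 and downward in 14, 68.6% of those tested beside 62.1% of all genes, with a median of -0.07. Eif4ebp2, a repressor that holds the cap-binding protein Eif4e, and Eif1a, which acts in scanning, fell by 0.79 (SE 0.062, edgeR adjusted p = 1.13e-08) and 0.58 (SE 0.040, adjusted p = 1.70e-09) on the log2 scale. Eif5, which drives hydrolysis of GTP at the start codon, fell by 0.46, and Eif6, which keeps the large ribosomal subunit free, rose by 0.45. In untreated cells none of the 35 was called by edgeR or DESeq2, and 7 had an unadjusted p under 0.05 in edgeR and 9 in DESeq2. Among all genes these shares were 0.35% and 14.9% in edgeR.

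Genes around Eif3a that were not proposed were examined along the chromosome. Of 9 in the count table within 1 Mb, 5 were tested, Rab11fip2, Fam204a, Cacul1, Zfp950 and Csf2ra, and the other 4 were too low. With zymosan 2 were called higher and 2 lower, 80% of those tested beside 62.1% of all genes, and nothing is read from so few. With zymosan, Rab11fip2, an effector of recycling endosomes, rose by 0.72 (SE 0.17, edgeR adjusted p = 0.00139) and Fam204a by 0.15 (adjusted p = 0.0316). Zfp950, a zinc finger gene that overlaps Grk5, fell by 0.90 (SE 0.26, adjusted p = 0.00578), and Csf2ra, the receptor subunit for GM-CSF, fell by 0.54 (SE 0.094, adjusted p = 8.74e-05). Cacul1 had a difference of 0.21 (adjusted p = 0.213). Fam204a lost its call without WT zymosan library 3 (0.12, adjusted p = 0.0788) and without the Mcu-/- zymosan library numbered 4 (0.12, adjusted p = 0.126) or 5 (0.15, adjusted p = 0.0706). Cacul1 was called without Mcu-/- untreated library 4 in the fit (0.21, adjusted p = 2.36e-07), with which it shares the estimate of spread.

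In untreated cells none of the 5 was called by edgeR or DESeq2, and 2, Fam204a and Cacul1, had an unadjusted p under 0.05 in edgeR, as had 2 in DESeq2. Among all genes edgeR called 0.35%, and 14.9% had an unadjusted p under 0.05. Cacul1 was at 200 CPM in library 4 against 104 to 108 in libraries 1 to 3, and its difference of 0.40 became 0.11 without library 4, while that of Fam204a remained 0.20. Zfp950 was at 3.97 CPM in library 4 against 8.54 to 11.06 in libraries 1 to 3 and 9.89 to 11.07 in WT untreated libraries. Farther out, 14 of 30 genes between 1 and 5 Mb were tested, and with zymosan 3 were called higher and 3 lower, 42.9% of those tested beside 62.1% of all genes, with a log2 difference of -3.13 (SE 0.49) in Atrnl1, named after its value was seen. The tested genes next to Eif3a on either side, Nanos1 and Fam45a, stood at 2.04 and 0.09 in untreated cells and at 4.98 and 0.23 with zymosan.

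**Figure D5:**
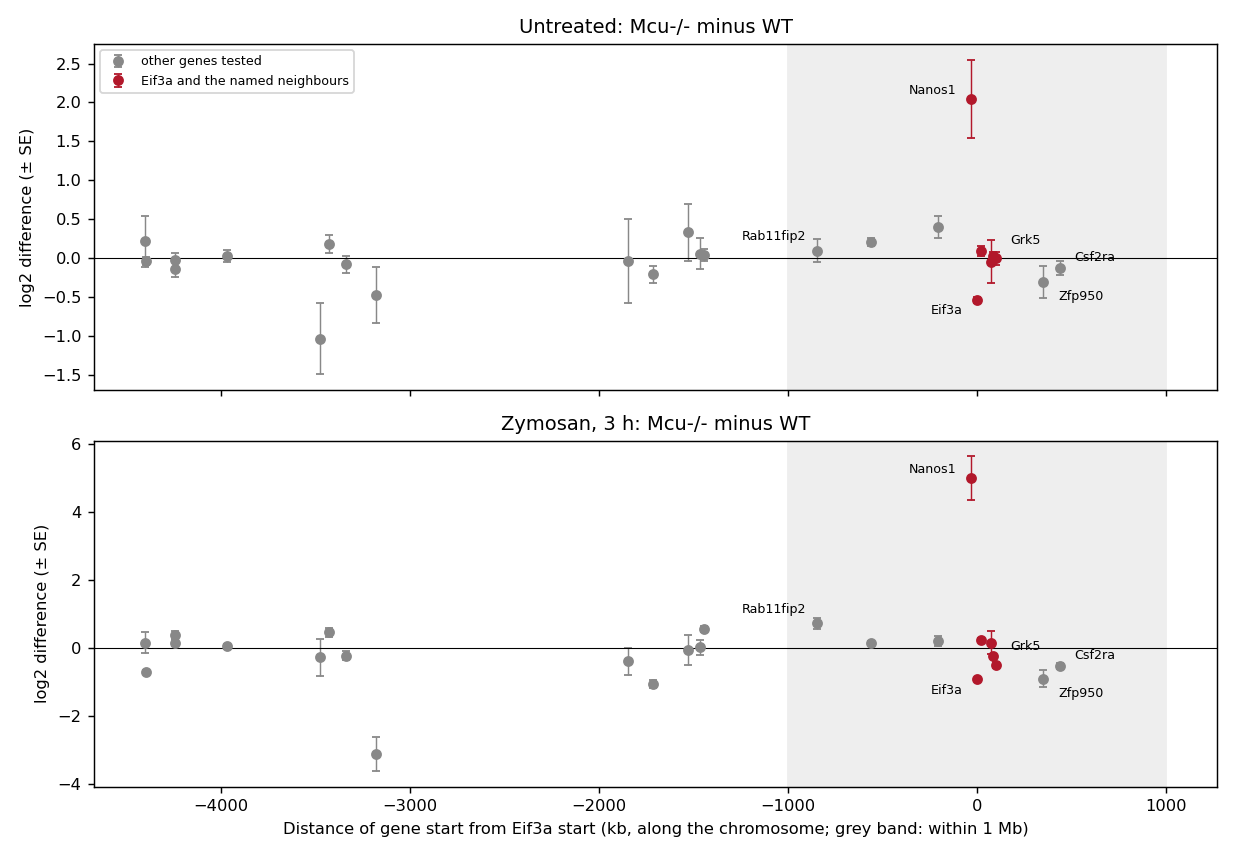
Log2 difference of Mcu-/- from WT with SE, untreated (top) and with zymosan (bottom), for every tested gene within 5 Mb of Eif3a, against the distance of gene starts in kb. The grey band is the 1 Mb window, and Eif3a at -0.54 and -0.92 lies 34.7 kb from Nanos1 at 2.04 and 4.98.

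Comparisons within WT cells were not themselves used to choose the genes and were tested. The same WT libraries entered the genotype comparison used for the choice, so these p-values, and those for BAPTA-AM, are not independent of it. With zymosan against untreated, edgeR called 6 of the 10 higher and 3 lower, beside 32.4% and 36.8% of all genes, 69.1% in either direction. The groups did not overlap for 8 of the 10, beside 69.5% of all genes. Eif3a, Eif3b, Eif3c, Eif3d, Eif3e and Grk5 rose by 0.32 to 0.42 on the log2 scale with TMM, but all 6 were at -0.17 to -0.07 with library totals, so their direction depends on the scaling. Eif3a had a TMM difference of 0.32 (SE 0.040, adjusted p = 7.65e-07) and Grk5 of 0.42 (SE 0.083, adjusted p = 0.000151), which became -0.17 and -0.07. Prdx3 was not called with TMM, at 0.07 (adjusted p = 0.199), and was at -0.42 with library totals.

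The fall of Nanos1 with zymosan in WT held on both scalings. Its log2 difference was -3.44 (SE 0.64, adjusted p = 9.96e-05), and the mean of WT untreated libraries was 10.99-fold that of WT zymosan libraries, with no overlap. Fam45a fell by 0.32 (SE 0.061, adjusted p = 0.00013) and Sfxn4 by 0.74 (SE 0.29, adjusted p = 0.0295), the last on 4 to 31 counts and with overlapping groups. Sfxn4 lost its call without WT untreated library 1 or 2 or WT zymosan library 2 or 4, at -0.69 to -0.52 (adjusted p = 0.0606 to 0.0897). Of the 9 other eIF3 subunits 8 were called higher with TMM and 1 with library totals, and Eif3j1, at 0.75 (SE 0.034, adjusted p = 2.81e-13), was the one that stayed.

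Differences between zymosan and untreated Mcu-/- libraries are given without a test. A zymosan response cannot be told apart from whatever sets library 4 and the Mcu-/- zymosan libraries apart from libraries 1 to 3. Eif3a differed by -0.06 (SE 0.046) on the log2 scale between zymosan and untreated, while Eif3b, Eif3c and Eif3d were higher by 0.40, 0.68 and 0.41. Those values rest mostly on libraries 1 to 3, where Eif3b, Eif3c and Eif3d were at 239 to 257, 242 to 257 and 103 to 109 CPM. Library 4 was at 294, 378 and 127, and the highest zymosan values were 343, 459 and 150. Nanos1 was at 29.6 to 30.0 CPM with zymosan against 15.3 to 16.4 in untreated libraries 1 to 3 and 122 in library 4, so the sign of its response turned on which untreated libraries were used.

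Calcium buffering with BAPTA-AM left 9 of the 10 genes without a call. Against WT zymosan, edgeR called 1 lower and none higher, beside 12.8% of all genes called in either direction, 6.43% higher and 6.33% lower. DESeq2 also called none of the 10 higher, and the only one with an unadjusted p under 0.05 in edgeR was Grk5. Only Grk5 passed, at 17.17, 14.03, 12.96 and 16.43 CPM in the loaded libraries against 21.04 to 23.6 without BAPTA-AM, a fall of 0.56 (SE 0.084, adjusted p = 0.000149) with no overlap, as in 24.3% of all genes. Eif3a stood at 1078, 1101, 1081 and 1093 CPM in loaded libraries against 1053 to 1162, a difference of -0.02 (SE 0.040, adjusted p = 0.795). Nanos1 stayed at 0.556 to 0.953 CPM, on 11 to 17 counts, with a difference of -0.20 (SE 0.94, adjusted p = 0.938), so a change of the size of this SE was not detectable at this depth. None of the 9 other subunits was called by edgeR, and 1 had an unadjusted p under 0.05 in edgeR and 1 in DESeq2, where 25.5% of all genes did in edgeR.

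The genes most like Eif3a over the 20 libraries, by Pearson's r of log2 CPM, were Hnrnpu at 0.96, a nuclear RNA-binding protein, Isg20l2 at 0.96, a nucleolar exonuclease, Snd1 at 0.94, a nuclease-domain coactivator, Specc1l at 0.94 and Slc15a2 at 0.94, a peptide transporter. Snd1 ranged from 276 to 291 CPM in WT zymosan and 187 to 190 in Mcu-/- zymosan libraries. The genes most like Nanos1 were Hip1 at 0.99, a clathrin-binding protein, Dapk1 at 0.99, a kinase, Tlr13 at 0.99, a receptor for bacterial ribosomal RNA, Mesd at 0.98, a chaperone, and Dock8 at 0.98. Tlr13 lay at 37.6 to 47.8 CPM in WT zymosan and 206 to 216 in Mcu-/- zymosan libraries, and Hip1 at 28.9 to 33.4 in WT zymosan and 140 to 143 in Mcu-/- zymosan libraries. In untreated cells the genotypes overlapped in both. Tlr13 was at 151 to 154 in WT and 136 to 430 in Mcu-/- untreated libraries, and Hip1 at 83.6 to 88.9 and 86.1 to 253. The points share their groups, and over the 19 libraries without library 4 the r of the Nanos1 list ran from 0.98 to 0.99.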

How the data were processed

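RNA of 20 BMDM libraries in 5 groups was analysed from 1 deposited table of raw read counts per gene. Per the study's methods, the authors trimmed paired-end reads with cutadapt, aligned them to mm10 with STAR and counted them with HTSeq. Versions, annotation and strand setting were not given in the sources used here. The labels call the libraries biological replicates. The Mcu-/- zymosan columns are numbered 3 to 5 and the samples 1 to 3, so those columns were tied to the group only.

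Of 21963 entries, 21710 matched GENCODE M21. After filterByExpr, 11707 genes were fitted with edgeR 4.0.16 in R 4.3.3 (TMM, quasi-likelihood, all 20 libraries, 5 groups, Benjamini-Hochberg adjusted p under 0.05). DESeq2 1.42.0, other filters and scalings, the comparison's groups alone, a replicate block and each library left out were alternatives. Library totals were added as a scaling after the data were seen. The edgeR fit was tested on simulated data for Mcu-/- against WT with zymosan (11474 genes), and 200 of 200 genes changed by 1 log2 unit were recovered, with 12 false calls. The simulation gave every gene the same spread, changed only well-counted genes and held no library that stood apart. It therefore checks the code and does not show how the fit performs on these libraries. Shares of counts were compared by exact permutation tests. Library totals were 14420402 to 23954552 counts.

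The genes described and the lists were chosen with earlier results of these data known. The text names all 10 genes, the other eIF3 subunits, tested genes within 1 Mb of Eif3a, Mcu, up to 4 called initiation factors with the largest differences, and the 5 genes most alike to Eif3a and to Nanos1 by Pearson's r of log2 CPM. Neutrophil, B cell, T or natural killer cell, dendritic, mast cell and erythroid markers were also read. Of these, the summed dendritic markers reached 10.4 to 11.5 CPM in Mcu-/- zymosan libraries against 9.05 to 9.65 in WT zymosan libraries. Most of that sum was Xcr1, at 9.89 to 10.79 and 8.48 to 9.54 respectively, and at 0.317 to 0.806 in untreated libraries. Flt3, Zbtb46 and Siglech reached at most 0.602 CPM with zymosan. Promoters came from RefSeq on GRCm38.p6.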

Additional observations from a re-analysis of the deposited data

Results flagged for a closer look

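In the 100 groups of 4 or 5 libraries examined for a single library far from its group, 8 had one by Dixon's criterion, where chance gives about 1 in 20. Of these, 3 were Mcu-/- untreated library 4, with Nanos1 at 122 CPM (others 15.3 to 16.4), Eif3c at 378 (others 242 to 257) and Cacul1 at 200 (others 104 to 108). WT zymosan library 4 was low in Fam45a, at 51.0 CPM (others 55.9 to 57.7), and in Eif3d, at 120 (others 128.0 to 129.5). WT zymosan library 5 was high in Eif3i, at 109 CPM (others 104 to 106), WT untreated library 4 in Eif3j2, at 3.03 (others 2.50 to 2.57), and BAPTA-AM library 2 was low in Zfp950, at 3.87 (others 4.27 to 4.32).

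The edgeR interaction term of genotype and zymosan was called in 7 of 15 genes outside the selected set, beside 35.2% of all genes. Mcu-/- untreated library 4 differed from libraries 1 to 3 much as Mcu-/- differed from WT with zymosan (Pearson's r = 0.79). A zymosan response in Mcu-/- cells therefore cannot be told apart from this split among libraries. In library 4 and libraries 1 to 3, Csf2ra was at 83.0 and 114 to 130 CPM and Eif3h at 219 and 275 to 296. Eif3j1 was at 83.1 and 82.7 to 85.0. The response in Mcu-/- minus that in WT cells was -0.18 (log2, adjusted p = 0.0319) for Eif3f, 0.28 (0.00785) for Eif3g, -0.32 (0.0134) for Eif3h, -0.27 (0.0172) for Eif3i, -0.29 (0.000416) for Eif3j1, 0.62 (0.0405) for Rab11fip2 and -0.42 (0.0180) for Csf2ra. Without Mcu-/- untreated library 4 all 7 stayed called, at -0.21, 0.33, -0.40, -0.33, -0.29, 0.71 and -0.54, and Eif3k (-0.17), Eif3l (-0.19), Eif3m (-0.29) and Zfp950 (-0.83) were called as well. That omission leaves only libraries 1 to 3 on the Mcu-/- untreated side. It is therefore no check on the split among libraries, and no conclusion is drawn from the added calls. Eif3f and Rab11fip2 each lost the call without a filter on low counts and in 9 of the single-library omissions, and Eif3i without the Mcu-/- zymosan library numbered 5 (-0.23, adjusted p = 0.0595).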

How the results depend on the processing

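With library totals as the scaling, an alternative chosen after seeing the data, the WT zymosan responses turned negative for Eif3a (-0.17), Eif3b (-0.15), Eif3c (-0.17), Eif3d (-0.16), Eif3e (-0.080), Eif3f (-0.22), Eif3g (-0.29), Eif3h (-0.27), Eif3i (-0.33), Eif3k (-0.36), Eif3l (-0.46), Eif3m (-0.34), Grk5 (-0.068), Prdx3 (-0.42), Fam204a (-0.36) and Csf2ra (-0.14). Of the 10 genes, 0 were then called higher and 7 lower, and of the other eIF3 subunits 1 was called higher. The same scaling turned the BAPTA-AM differences of Eif3a (0.038), Eif3b (0.015) and Eif3e (0.036) and the untreated genotype difference of Eif3g (-0.00401), and gave -0.97 for Eif3a between genotypes with zymosan. Within 1 Mb of Eif3a, 1 gene was called higher with zymosan under library totals, DESeq2 or no filter, and 1 to 3 when single libraries were left out. Leaving out each library in turn gave Eif3a -0.57 to -0.51 untreated and -0.94 to -0.90 with zymosan, and Nanos1 0.63 to 2.32 and 4.88 to 5.15. The lowest untreated Nanos1 value was without Mcu-/- library 4. Across the same omissions the untreated differences ran from -0.029 to 0.024 for Eif3f, -0.030 to 0.046 for Eif3g and -0.093 to 0.0019 for Eif3i, the BAPTA-AM difference of Sfxn4 from -0.10 to 0.31, and the interaction of Cacul1 from -0.28 to 0.11. The cause of these changes was not tested. Over all genes, the untreated genotype calls were 15 higher and 26 lower, 57 and 55 in DESeq2, 2 and 3 with those groups alone, and 178 and 213 without Mcu-/- library 4. Same-numbered libraries did not deviate together (r -0.055 to 0.059 over 12 pairs). With the replicate number as a block, without the Mcu-/- zymosan libraries, Eif3a was at -0.54 and Nanos1 at 1.48 untreated, 6 of the 10 genes rose and 3 fell with zymosan in WT, and Eif3m (0.15, adjusted p = 0.129) and Fam204a (0.13, adjusted p = 0.0626) lost that call in edgeR. Sfxn4 was not tested with at least 10 counts in every library.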
